A study of Mus musculus with 12 samples.

Results

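The genes described here are 41 genes of DNA repair and of the Fanconi anemia pathway, out of 16836 gene names in the tables, measured by RNA sequencing in mouse myogenic progenitors of the H2K type, wildtype or without emerin (emerin-null). Members were chosen by name and grouped into 9 roles by their known function: homologous recombination (9 genes), the Fanconi core and its anchor (6), Fancd2, Fanci, Brip1 and Usp1 (4), break ends and resection (4), helicases and junction resolution (5), mismatch repair (3), nick repair and PARP enzymes (3), end joining (3), and fork protection with Trip13 (4). H2K cells keep dividing through an immortalizing antigen that works at low temperature and is switched on by interferon, and emerin is a protein of the inner nuclear membrane. The 12 samples were 1 wildtype and 1 emerin-null sample at each of 6 stages. Each genotype was 1 cell line, so the genotype and the line cannot be told apart. Proliferating cells and day 0 cells, which had been plated densely for differentiation, were kept in growth medium with 20 units/ml of interferon-γ. Cells of days 1, 2, 3 and 4 were in low-serum medium without interferon-γ, in which wildtype progenitors fuse into myotubes. The question was how these genes behave as progenitors stop dividing and differentiate, and where emerin-null progenitors differed.

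Homologous recombination repairs a broken chromosome from its sister copy, and is used mainly by cells that are replicating their DNA. Brca1 with Bard1 starts the process, and Palb2 joins Brca1 to Brca2, which acts in the search for the matching strand. The Fanconi pathway removes crosslinks between DNA strands: a core complex attaches ubiquitin to Fancd2 and Fanci, and Usp1 takes it off again. End joining and nick repair do not need a sister copy and serve resting cells as well, including muscle cells that have left the cell cycle.

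Levels are given in FPKM, the number of sequenced fragments scaled by transcript length and by the size of the library, as 1 value per genotype and stage. RNA came from 3 culture plates per sample but no plate had a value of its own, so the spread between plates is unknown, and so is the depth behind each value. Each stage had its own table, assembled and normalized separately. Differences between genotypes were therefore taken within a stage, as the log2 ratio of FPKM + 0.1 in emerin-null over wildtype, and changes between stages are given only as descriptions. Many genes shared an assembled locus with a neighbour, and a level is ascribed to a gene only where the gene was alone at its locus. Where a gene had several entries at a stage, the one with the largest summed FPKM was used, and whether a gene was alone refers to that entry. Of the 41 members, 17 were alone at every stage, 14 at 1 to 5 stages and 10 at none. Between 20 and 28 members were alone at a given stage.

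Emd, which encodes emerin, stood at 14.9 FPKM in wildtype and 0.810 in emerin-null proliferating cells, at 62.1 and 0.0859 on day 0, at 29.6 and 0.0421 on day 3 and at 31.8 and 0.0735 on day 4. On day 1 it was 50.9 in wildtype and listed at 0 in emerin-null cells, and on day 2 the gap was narrower, 13.6 against 3.10. Myogenic markers that were alone at their locus summed to between 1400 and 6775 FPKM in wildtype and between 1418 and 5637 in emerin-null samples. The sums cover different genes, from 10 of 12 on day 0 to 5 on day 4. Single markers differed between genotypes. Log2 ratios were 1.24 to 3.43 for Pax7 and 0.69 to 1.73 for Myf5 over the stages. Those of Tnnt3 were -0.53 to -0.18 where it was alone, and Myh3 had -1.12 on day 0. Only 1 of 7 macrophage markers was alone at its locus, at no more than 4.11 FPKM. The endothelial and adipocyte lists summed to at most 1.73 FPKM in any sample in which they could be read. Of 5 genes in each list, 1 to 4 endothelial and 0 to 2 adipocyte genes were alone at a stage. These low sums therefore cover few genes and do not show that such cells were absent. Fibroblast markers summed to 484 FPKM in proliferating wildtype cells and 37.6 on day 4, and stood at 482 and 144 in the emerin-null samples. Col1a2 alone held 462 and 27.4 FPKM of these sums in wildtype and 465 and 89.9 in emerin-null samples. Of 20 cycling cell markers, 14 to 17 were alone at each stage and none was at 0 in both genotypes. Their summed level ran from 940 FPKM in proliferating wildtype cells to 70.9, 46.8 and 43.0 on days 2, 3 and 4, and the emerin-null samples held 939 FPKM when proliferating and 118, 110 and 114 on those days.

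Promoter sequences of the members were looked up because many of these genes stood lower together after day 1. RefSeq (GRCm38.p6, the same assembly as mm10) gave 34 promoters for 32 of the 41 members, each from 250 bases before to 50 bases after the transcription start. Both strands were searched for the E2F-type words TTTGGCGC, TTTCCCGC, TTTCGCGC and TTTGCCGC, for the CHR words TTTGAA and TTCGAA, and for CCAAT, none of which contains another. E2F factors are known to drive genes of DNA replication. An E2F-type word was present in the promoters of 8 members (Bard1, Brca2, Clspn, Fancg, Msh3, Msh6, Rmi1 and Xrcc6), and in 2.26% of all 32851 promoters. CHR words were present in 4 members and in 19.2% of all promoters, and CCAAT in 19 members and in 37.4%. Below, the promoters of Clspn (chr4:126556730-126557029, plus strand), Brca2 (chr5:150522371-150522670, plus strand) and Bard1 (chr1:71102923-71103222, minus strand) are shown because these genes hold such a word and were over 15-fold lower on day 4 than in growing wildtype cells, and that of Rad51ap1 (chr6:126939538-126939837, minus strand) because it was lower by a larger factor still and holds none of the E2F-type words in this window. Sequences run 5′ to 3′ on the gene's strand, and capitals mark the E2F-type word or its reverse complement.
Clspn: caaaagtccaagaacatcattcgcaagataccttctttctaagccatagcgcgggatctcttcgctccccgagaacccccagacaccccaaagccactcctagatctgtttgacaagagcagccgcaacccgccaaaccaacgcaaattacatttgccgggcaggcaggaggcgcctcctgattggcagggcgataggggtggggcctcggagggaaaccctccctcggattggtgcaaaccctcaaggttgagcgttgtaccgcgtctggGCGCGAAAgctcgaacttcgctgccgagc
Brca2: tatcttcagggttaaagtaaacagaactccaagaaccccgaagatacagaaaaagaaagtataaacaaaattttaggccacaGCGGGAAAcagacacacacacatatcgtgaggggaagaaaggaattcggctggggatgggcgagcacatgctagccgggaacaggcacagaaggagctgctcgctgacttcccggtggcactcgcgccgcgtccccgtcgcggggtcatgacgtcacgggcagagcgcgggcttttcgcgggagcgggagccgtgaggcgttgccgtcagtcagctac
Bard1: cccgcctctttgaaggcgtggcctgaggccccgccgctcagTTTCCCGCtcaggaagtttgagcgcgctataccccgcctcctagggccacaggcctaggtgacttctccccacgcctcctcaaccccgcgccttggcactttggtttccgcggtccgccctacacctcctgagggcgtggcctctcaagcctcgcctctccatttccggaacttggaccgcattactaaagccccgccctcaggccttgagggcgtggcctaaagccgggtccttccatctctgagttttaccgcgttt
Rad51ap1: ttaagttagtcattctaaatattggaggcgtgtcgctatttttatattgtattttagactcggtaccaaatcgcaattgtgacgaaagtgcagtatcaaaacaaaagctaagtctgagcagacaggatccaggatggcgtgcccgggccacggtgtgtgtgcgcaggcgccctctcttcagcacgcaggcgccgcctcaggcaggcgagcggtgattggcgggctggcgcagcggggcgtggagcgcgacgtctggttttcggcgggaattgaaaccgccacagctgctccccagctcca
A match is a description of the letters and not a site. Fancg, which holds the word, was 1.67-fold lower on day 4 than in proliferating wildtype cells. Trip13 and Brca1, which hold no E2F-type word in this window, were 46.3-fold and 14.6-fold lower. Whether the words go with the decrease was not tested. Of the 8 members with the word, Bard1, Brca2 and Clspn were past 1.5-fold higher in emerin-null cells at 1 or more of days 2 to 4, Fancg was lower in emerin-null cells at 6 of 6 stages, Rmi1 differed by a log2 ratio of at most 0.11, and Msh3, Msh6 and Xrcc6 shared their locus with a neighbour at every stage.

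In both genotypes many repair genes stood lower after the medium was changed, and the largest median decrease between consecutive stages lay between day 1 and day 2. From day 1 to day 2, 11 of 19 members with a level at both stages, at least 1 FPKM at 1 of them, were at least 2-fold lower in wildtype cells, against 16.0% of all genes, and 12 of 19 in emerin-null cells, against 12.6%. The median log2 change over the members was -1.26 in wildtype and -1.14 in emerin-null cells, where that of all genes was -0.23 and -0.16. The step from day 0 to day 1 had a median of -0.91 and -0.77 over the members, where that of all genes was -0.08 and -0.10. From day 0 to day 1, 5 of 19 members were at least 2-fold lower in each genotype, against 13.7% of all genes in wildtype and 14.2% in emerin-null cells. Blm was among them in both genotypes, with a largest entry of 44.6 FPKM on day 0 and 4.53 on day 1 in wildtype. It was also 2-fold higher from proliferating cells to day 0 and from day 1 to day 2. Blm had a second entry, described below, so these steps may lie between entries. No member was 2-fold lower from proliferating cells to day 0, against 4.32% and 5.21% of all genes. After day 2 such decreases were few: 1 of 17 members in wildtype (6.90% of all genes) and 3 of 22 in emerin-null cells (5.40%) from day 2 to day 3, and 1 of 15 (5.22%) and 0 of 20 (5.02%) from day 3 to day 4. Rbbp8 was 1 of the 3 in emerin-null cells and the 1 of 15 in wildtype. Both rest on a day 3 entry of 93397 FPKM in wildtype and 0 in emerin-null cells, described below. In a bulk sample, fewer cells that express a gene and less RNA per cell cannot be told apart. The summed level of the cycling cell markers was lower over the same days, and its part in these decreases was not tested.

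**Figure D1:**
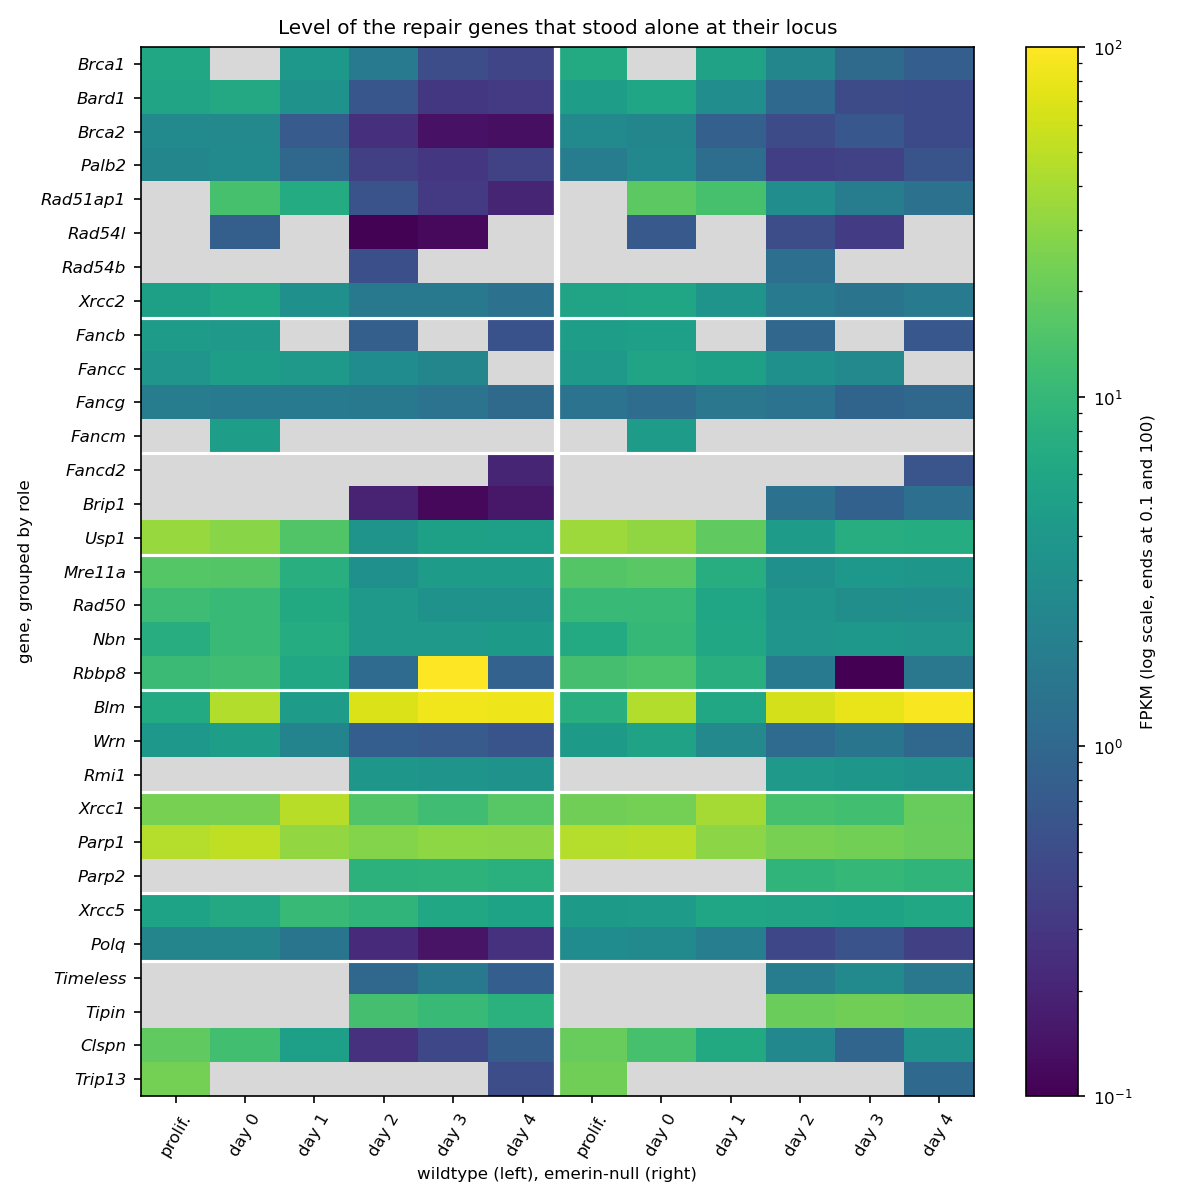
FPKM (colour, log scale that ends at 0.1 and 100) of the 31 members that were alone at their locus at 1 or more stages, with 6 wildtype samples on the left and 6 emerin-null samples on the right, 1 pooled value each; grey marks a stage at which the gene was joined with a neighbour or had no usable entry. Most genes of homologous recombination turn dark from day 2 on, while Parp1 stayed between 20.8 and 51.1 FPKM; the bright Rbbp8 cell on day 3 is an entry of 93397 FPKM against 0.

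The size of the decrease differed among genes. At some stages the entry used covered only part of the gene, so a fold may set a part against a longer stretch. The entry of Clspn ran over chr4:126556659-126593074 in proliferating cells and over chr4:126581426-126586001 on day 2. What this does to the levels was not tested. Clspn, the adaptor through which a stalled fork activates the Chek1 kinase, went from 18.5 FPKM in proliferating wildtype cells to 0.771 on day 4, 24.0-fold lower, and from 20.2 to 3.37 in emerin-null cells, 5.98-fold lower. Brca2 was 19.7-fold lower on day 4 than in proliferating wildtype cells and 5.52-fold lower in emerin-null cells. Bard1 was 17.2-fold and 9.92-fold lower, and Brca1 14.6-fold and 8.68-fold lower. Rad51ap1 had a level of its own from day 0, and was 66.3-fold lower on day 4 than on day 0 in wildtype cells and 12.9-fold lower in emerin-null cells. For these 5 genes the decrease was larger in the wildtype samples. Genes that bind or trim broken ends were not alike: Rad50 was 3.46-fold lower in wildtype and 3.65-fold lower in emerin-null cells on day 4 than when proliferating, Mre11a 3.66-fold and 4.05-fold, Nbn 1.73-fold and 1.86-fold, and Rbbp8 12.9-fold and 8.02-fold. Among genes of nick repair Parp1 was 1.53-fold and 2.23-fold lower and Xrcc1 1.44-fold and 1.12-fold. Xrcc5 of end joining went from 5.57 to 5.51 FPKM in wildtype cells and from 4.30 to 6.15 in emerin-null cells. Of the 20 members with a level in proliferating cells and on day 4, the log2 change was the lower one in wildtype for 15, as it was for 60.2% of all genes, and in emerin-null cells for Mre11a, Rad50, Nbn, Blm and Parp1. The largest entry of Blm read 6.89 FPKM in proliferating wildtype cells and 84.7 on day 4, and whether both are the same transcript was not tested.

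Emerin-null and wildtype progenitors held nearly the same levels of the repair genes while proliferating and on day 0, and the genes that differed by day 2 were nearly all higher in emerin-null cells. Without any filter on level, 0 of 21 members were past 1.5-fold higher in emerin-null proliferating cells (9.01% of all genes), 0 of 22 on day 0 (7.95%) and 1 of 20 on day 1 (10.3%). The counts were 10 of 28 on day 2 (11.8%), 10 of 26 on day 3 (13.4%) and 11 of 27 on day 4 (18.1%). Past 1.5-fold lower were 0, 0, 1, 1, 1 and 0 members over the 6 stages, against 8.75%, 10.6%, 8.07%, 6.82%, 7.49% and 7.89% of all genes. The 1 member lower on day 3 was Rbbp8, through an entry described below. All counts come from 1 pair of samples per stage, with no replicate check. The median log2 ratio of the members was 0.01, 0.01, 0.18, 0.27, 0.24 and 0.42 from proliferating cells to day 4, where that of all genes stayed between -0.04 and 0.07. On day 4, 22 of 27 members had a ratio above 0, as had 57.8% of all genes.

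Many of these levels were low. Where at least 1 FPKM in either genotype was required, 0 of 21 members were past 1.5-fold higher in proliferating cells (6.33% of all genes), 0 of 21 on day 0 (5.68%), 1 of 19 on day 1 (6.55%), 7 of 23 on day 2 (8.96%), 5 of 19 on day 3 (10.7%) and 8 of 20 on day 4 (15.5%). Of the members that met this minimum, 6, 3 and 7 met it through the emerin-null sample alone, so these counts are biased upward. With this minimum, 0, 0, 1, 1, 1 and 0 members were past 1.5-fold lower over the 6 stages, against 7.12%, 8.47%, 6.95%, 5.25%, 5.91% and 6.27% of all genes. The 1 member on day 3 was again Rbbp8. At a pseudocount of 1 FPKM the counts higher with the minimum were 4, 2 and 4 on days 2, 3 and 4, and the share of all genes at that setting is not given.

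**Figure D2:**
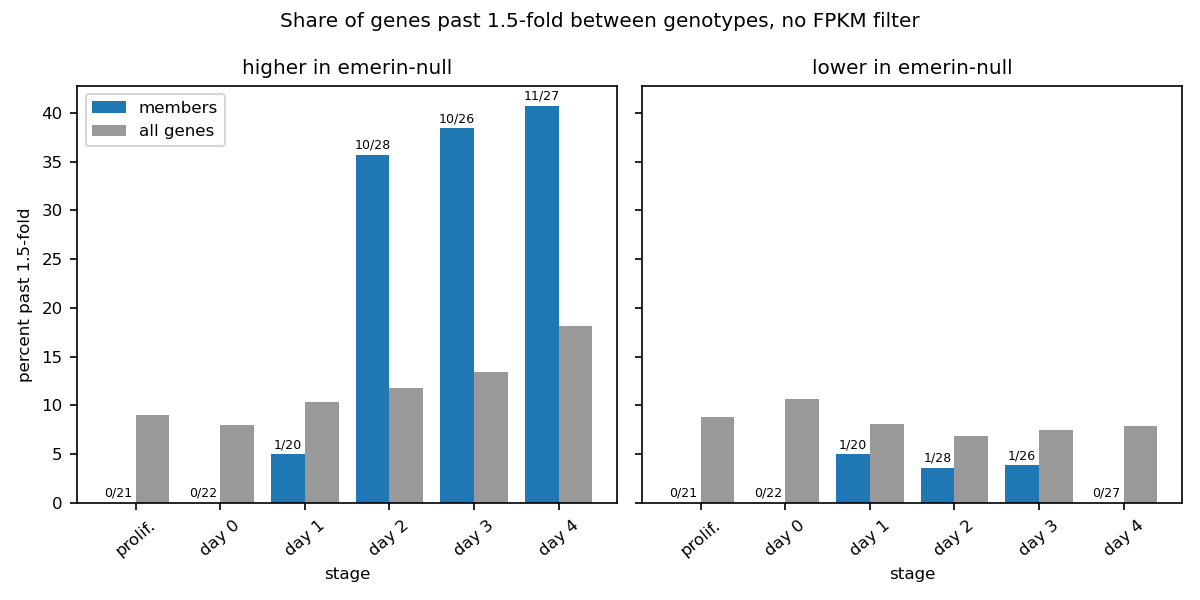
Percent of genes past 1.5-fold higher (left) and lower (right) in emerin-null cells at each stage with no FPKM filter, for the members (blue, with the count of members over those alone at their locus) and for all genes alone at their locus (grey). The members stand at 10 of 28, 10 of 26 and 11 of 27 on days 2, 3 and 4 on the left, and at no more than 1 at any stage on the right.

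The cycling cell markers moved with the genotype on the same days. Their median log2 ratio was 0.05 in proliferating cells, 0.03 on day 0 and 0.29 on day 1, and then 1.46, 1.61 and 1.88 on days 2, 3 and 4, when 13 of 16, 15 of 16 and 15 of 15 were past 1.5-fold higher in emerin-null cells with no filter. On day 0 the marker Kif11 was listed at 0 in wildtype and at 1311 FPKM in emerin-null cells. Fibroblast markers had a median log2 ratio of -0.41, -0.54, -0.47, 0.08, 1.13 and 1.71 over the 6 stages, from 3 to 5 genes at a stage, and those of smooth muscle and pericytes 0.25, -0.30, -0.27, 0.77, 0.71 and 1.30, from 3 to 6 genes. These lists were not uniform. On day 4 Col1a1 and Col1a2 had log2 ratios of 2.74 and 1.71 and Dcn -0.65, and Pdgfra and Thy1 were below 1 FPKM in both genotypes. Acta2, the most abundant smooth muscle and pericyte marker, had -0.01 on day 4, Cspg4 2.90 and Notch3 1.30. Whether other cell types were present was not tested, nor was the part of cycling or other cells in the differences between genotypes.

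**Figure D3:**
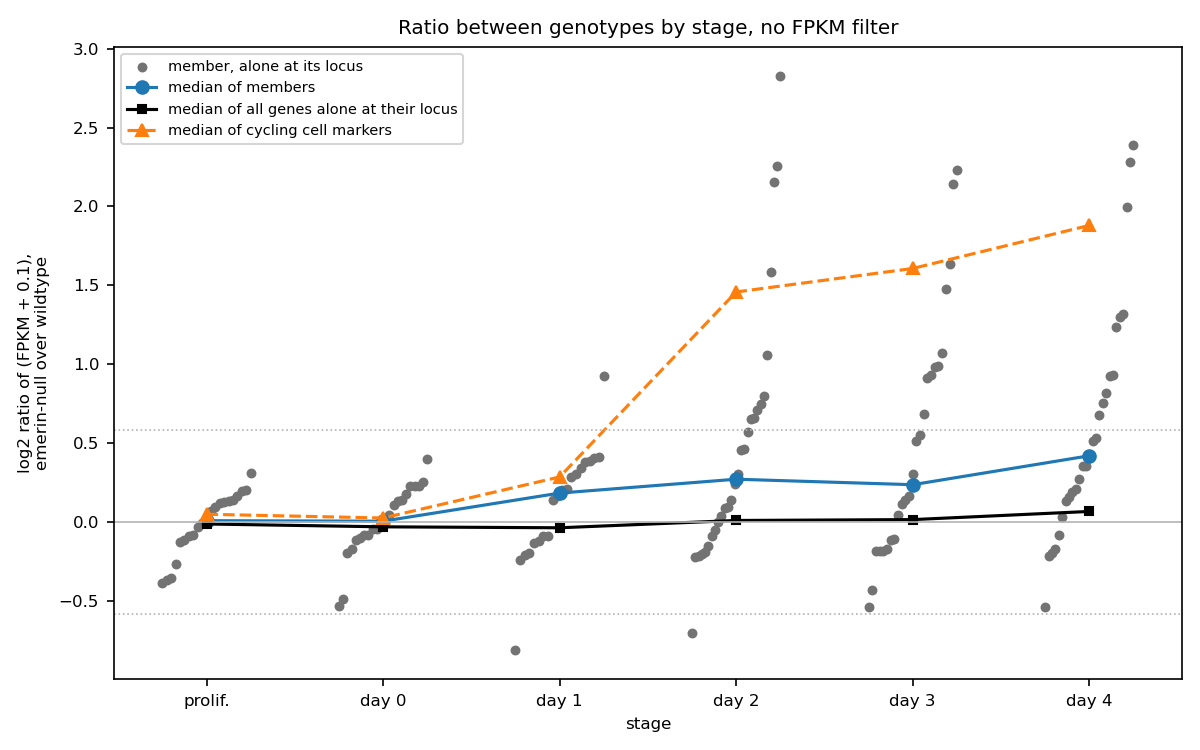
Log2 ratio of FPKM + 0.1, emerin-null over wildtype, of each member alone at its locus (grey points, sorted within a stage), with the median of the members (blue), of all genes (black) and of the cycling cell markers (orange); dotted lines mark 1.5-fold, and Rbbp8 on day 3 lies off the axis at -19.83. The members spread upward from day 2, to 2.83 for Clspn on day 2, while their median stays below that of the cycling cell markers.

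A test over stages asked whether a difference between the 2 lines kept its direction and size. Ratios of 3 or more stages were fitted with limma (moderated test against 0, 2-sided) over all 8117 genes with a mean of at least 1 FPKM, and p-values were adjusted over these genes by the method of Benjamini and Hochberg. Stages are not replicate cultures, so p measures how steady the difference was from stage to stage and not the spread between plates. Of 25 members tested, 6 passed an adjusted p of 0.05 as higher in emerin-null cells, where 10.0% of all genes did, and 2 passed as lower, where 9.98% did. Of the 25, 15 had an unadjusted p below 0.05, against 36.7% of all genes. Few calls held with 1 stage fewer. Without day 2 or without day 3, 0 members passed in either direction, while 432 and 436 genes in all were still higher. Without day 1, 3 members were higher and 0 lower. Without day 4 Fancc, which has no ratio on that day, was higher and Xrcc5 lower. The mean differences kept their sign with a stage left out. They lay between 1.43 and 1.90 for Rad51ap1, 0.43 and 0.65 for Brca1, and 0.17 and 0.22 for Fancc. For Usp1 they lay between 0.26 and 0.35, for Rad50 between -0.17 and -0.14, and for Nbn between -0.16 and -0.13. Tipin and Timeless, with ratios on days 2 to 4 only, left the test when any of these days was left out. Brip1 and Rad54l, with 3 ratios each, were below the minimum level.

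**Figure D4:**
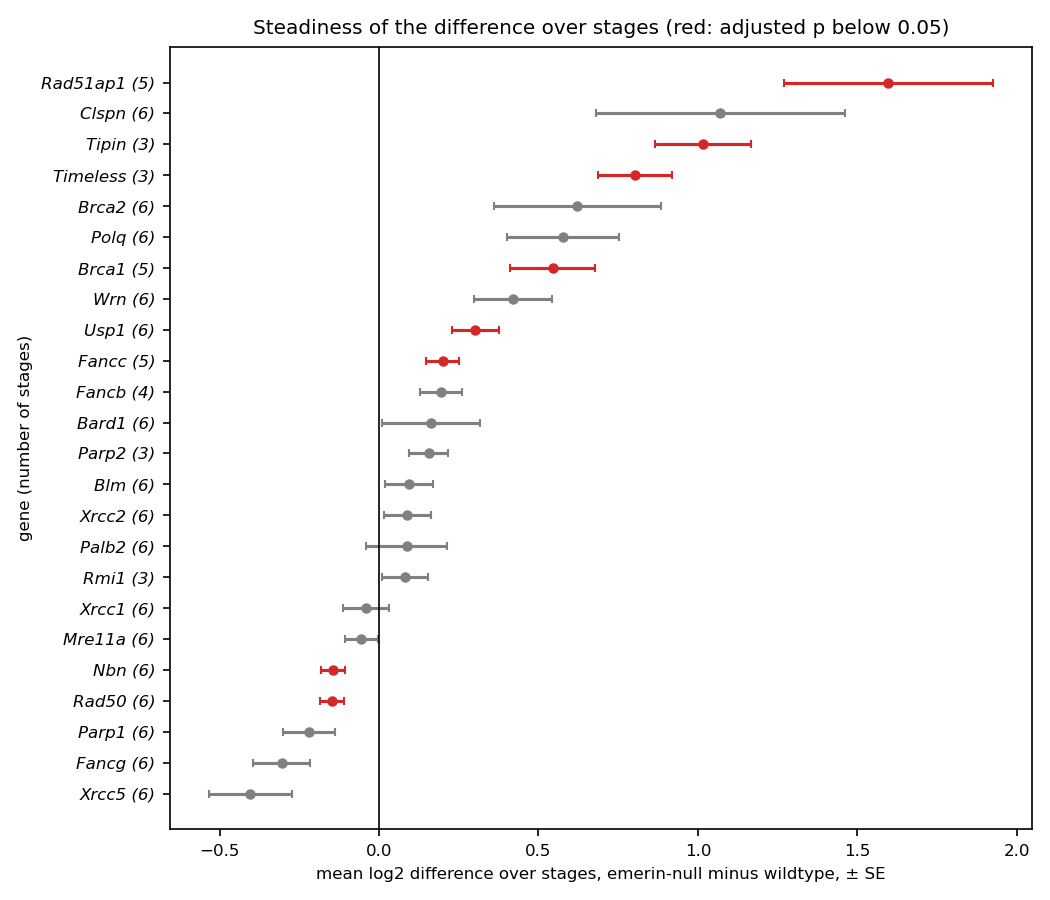
Mean log2 difference over stages, emerin-null minus wildtype, with its SE from limma, for 24 of the 25 members tested (number of stages in brackets; red marks an adjusted p below 0.05). Rad51ap1 stands highest at 1.60 and Xrcc5 lowest at -0.40; Rbbp8, at -2.95 with an SE of 2.90, is left off the axis.

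Rad51ap1, which helps to pair the broken strand with its template, had the largest difference among the members higher in emerin-null cells. Its gene lies at chr6:126923050-126939587 on the minus strand (mm10). Wildtype levels from day 0 to day 4 were 13.4, 7.02, 0.587, 0.325 and 0.202 FPKM, and emerin-null levels were 17.7, 13.4, 2.96, 1.89 and 1.37. Emerin-null was higher at 5 of 5 stages, and the gap opened from a log2 ratio of 0.40 on day 0 to 2.28 on day 4. The mean log2 difference was 1.60 ± 0.33 (SE, n = 5 stages; limma, adjusted p = 0.0242). The adjusted p was 0.0792 without day 2, 0.0751 without day 3 and 0.0593 without day 4. In proliferating cells Rad51ap1 was joined with D6Wsu163e, and that locus stood at 10.8 and 18.1 FPKM.

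Brca1 (chr11:101488764-101551955, minus strand), the ubiquitin ligase that opens homologous recombination, also stood higher in emerin-null cells. Its wildtype levels were 6.22 FPKM in proliferating cells and 4.02, 1.71, 0.507 and 0.426 on days 1 to 4. The emerin-null levels were 6.82, 5.29, 2.39, 1.10 and 0.787. All 5 pairs pointed the same way, and the mean log2 difference was 0.54 ± 0.13 (SE, n = 5 stages; limma, adjusted p = 0.0392). With its day 0 entry, which was joined with Nbr1 at 23.0 and 19.8 FPKM, the adjusted p was 0.108, and it lay between 0.0780 and 0.0977 when any of days 1 to 4 was left out.

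The partners of Brca1 did not pass the test. Brca2 (chr5:150522630-150570329, plus strand) was level with wildtype in proliferating cells, 2.64 in wildtype and 2.63 in emerin-null, and on day 0, 2.61 and 2.41. From day 1 to day 4 wildtype held 0.729, 0.260, 0.140 and 0.134 FPKM and emerin-null 0.828, 0.504, 0.645 and 0.476. The log2 ratio thus ran up to 1.63 on day 3, and its mean over 6 stages was 0.62 ± 0.26 (SE; limma, adjusted p = 0.138). The day 3 entry of Brca2 covered chr5:150568942-150569712 only, a small part of the gene. Bard1 was lower in emerin-null cells at the first 3 stages (5.62 and 4.66, 6.5 and 5.77, 3.42 and 2.94 FPKM) and higher at the last 3 (0.633 and 1.05, 0.306 and 0.496, 0.326 and 0.470). Its ratios changed sign between day 1 and day 2, and its mean was 0.16 ± 0.15 (SE, n = 6 stages; limma, adjusted p = 0.473). Palb2 reached at most 2.70 FPKM and had ratios on both sides of 0. Xrcc2, which also acts in homologous recombination, went from 5.14 and 5.67 FPKM in proliferating cells to 1.36 and 1.77 on day 4.

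The Rad54 translocases and Xrcc3 could be read at few stages. Rad54l was alone at 3 stages, at 0.813 and 0.697 FPKM on day 0, 0.105 and 0.515 on day 2, and 0.119 and 0.334 on day 3. Its other entries were joined with Uqcrh and Lrrc41 at up to 51.5 FPKM. The Rad54l entry of day 0 covered chr4:116119060-116119348 only, a small part of the gene. Rad54b was alone on day 2, at 0.539 and 1.23 FPKM, and was joined with Fsbp at the other stages, at 0.251 to 5.16 FPKM. Xrcc3 was joined with Klc1, a kinesin light chain gene, at every stage and that locus reached 151 FPKM.

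Of the 3 Fanconi core genes tested, Fancc passed as higher in emerin-null cells, and Fancb and Fancg did not pass. Fancc, a core subunit, held 3.69, 4.74, 4.14, 2.87 and 2.36 FPKM in wildtype cells from the proliferating stage to day 3. The emerin-null values were 4.15, 5.68, 5.13, 3.17 and 2.61, each above its wildtype pair. The mean log2 difference was 0.20 ± 0.051 (SE, n = 5 stages; limma, adjusted p = 0.0453), and the adjusted p rose to between 0.0879 and 0.115 when any of these stages was left out. On day 4 its entry was joined with 2010111I01Rik and a cluster of miRNA genes at 75.8 and 84.4 FPKM. Fancg went the other way, with emerin-null lower at 6 of 6 stages (from 1.84 and 1.38 FPKM in proliferating cells to 1.10 and 1.04 on day 4), a mean of -0.30 ± 0.089 (SE; limma, adjusted p = 0.0547). Fancb was alone at 4 stages with log2 ratios of 0.12 to 0.24, and its mean level was 2.68 FPKM. It was joined with Mospd2 on day 1 and day 3, at 5.14 to 9.06 FPKM.

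The other core genes mostly shared their locus with a neighbour. Fanca shared its locus with Zfp276 at every stage, at 3.66 to 9.39 FPKM. Fancl, the ubiquitin ligase subunit, shared its locus with Vrk2, at 4.50 to 9.78 FPKM. Fancm, the translocase that anchors the core, was alone on day 0 at 4.66 and 4.51 FPKM and was joined with neighbouring genes elsewhere. The log2 ratios of the joined loci of Fanca and Fancl lay between -0.11 and 0.25.

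Usp1 (chr4:98923810-98935543, plus strand), which removes ubiquitin from Fancd2, was alone at all stages. In wildtype cells it measured 34.6, 29.4, 15.2, 3.57, 5.13 and 4.96 FPKM from proliferating to day 4. In emerin-null cells it measured 36.4, 31.7, 18.6, 4.42, 7.37 and 7.20. The emerin-null value was the higher one at 6 of 6 stages and the log2 ratio widened from 0.07 to 0.53. Its mean was 0.30 ± 0.073 (SE; limma, adjusted p = 0.0316), and the adjusted p was between 0.0608 and 0.0847 when any of days 1 to 4 was left out.

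Brip1, the helicase that works with Brca1 and is itself a Fanconi gene, was joined with Ints2 until day 1, at 11.5 to 30.4 FPKM. On days 2, 3 and 4 it was alone, at 0.196, 0.115 and 0.156 FPKM in wildtype and 1.32, 0.847 and 1.24 in emerin-null cells. Its day 2 entry covered chr11:86157584-86157897 only, a small part of the gene. The log2 ratios of 2.26, 2.14 and 2.39 were among the 2 largest of the members on each of these days, from levels of at most 0.196 FPKM in wildtype. Fancd2 was joined with Emc3 until day 3, and with 4931417G12Rik as well on days 0 and 1, at 36.7 to 52.6 FPKM, with the emerin-null value lower at 5 of 5 stages. On day 4 it was alone at 0.203 and 0.614 FPKM, and emerin-null was higher. Fanci shared its locus with Polg at all stages, at 5.54 to 18.8 FPKM. At low levels these long genes were also assembled as several short entries, each with its own value. On days 2 to 4, counting every entry alone at its locus, whatever its status, the emerin-null value was higher in 186 of 223 entries of 35 members, and in 54.0% of the entries of all genes. Before day 2 it was higher in 56 of 104 entries of members and in 48.2% of those of all genes. On days 2 to 4 the count was 19 of 19 for Fancd2, 16 of 16 for Brip1, 20 of 20 for Brca2 and 8 of 8 for Fanci, against 7 of 8 for Brca1, 4 of 6 for Palb2 and for Rad54l, 2 of 4 for Xrcc2, and 0 of 3 for each of Fancg, Mre11a, Rad50, Nbn and Parp1. Many of these entries were below 1 FPKM. Entries of 1 gene come from the same libraries and are not replicates.

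Rad50 and Nbn, 2 of the 3 subunits of the complex that first binds a broken end, were the members that passed as lower in emerin-null cells, and 2 of 25 members is a smaller share than the 9.98% of all genes. Rad50 (chr11:53649519-53707319, minus strand), which tethers the ends, held 11.8, 10.7, 6.57, 4.15, 3.50 and 3.40 FPKM in wildtype cells. Emerin-null cells held 10.8, 10.4, 5.98, 3.60, 3.07 and 2.96, lower at 6 of 6 stages by a small margin. The mean log2 difference was -0.15 ± 0.038 (SE; limma, adjusted p = 0.0374). Nbn (chr4:15957925-15992589, plus strand), which recruits the damage kinase Atm, held 7.46, 10.5, 7.29, 4.13, 4.24 and 4.31 FPKM in wildtype and 6.89, 9.96, 6.34, 3.71, 3.93 and 3.70 in emerin-null cells. It too was lower at 6 of 6 stages, by -0.14 ± 0.037 (SE; limma, adjusted p = 0.0374). Both calls were lost when the ratios were centred on the median of all genes, at adjusted p of 0.0623 for Rad50 and 0.0551 for Nbn. Leaving out a stage ended the call of Nbn for every stage and that of Rad50 for every stage but day 0. Mre11a, the nuclease of the complex, was lower at 5 of 6 stages, with log2 ratios between -0.18 and 0.14 and a mean of -0.06 (limma, adjusted p = 0.463).

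Rbbp8, which works with the Mre11a complex to trim the ends, was higher in emerin-null cells at 5 of 6 stages, from 11.2 and 12.9 FPKM in proliferating cells to 0.870 and 1.61 on day 4. On day 3 the entry with the largest sum read 93397 FPKM in wildtype and 0 in emerin-null cells, and a second entry over the same locus read 0.639 and 1.47. The mean log2 difference was -2.95 with that entry and 0.54 without it (limma, adjusted p = 0.495 and 0.0292), so its direction rests on 1 entry.

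**Figure D5:**
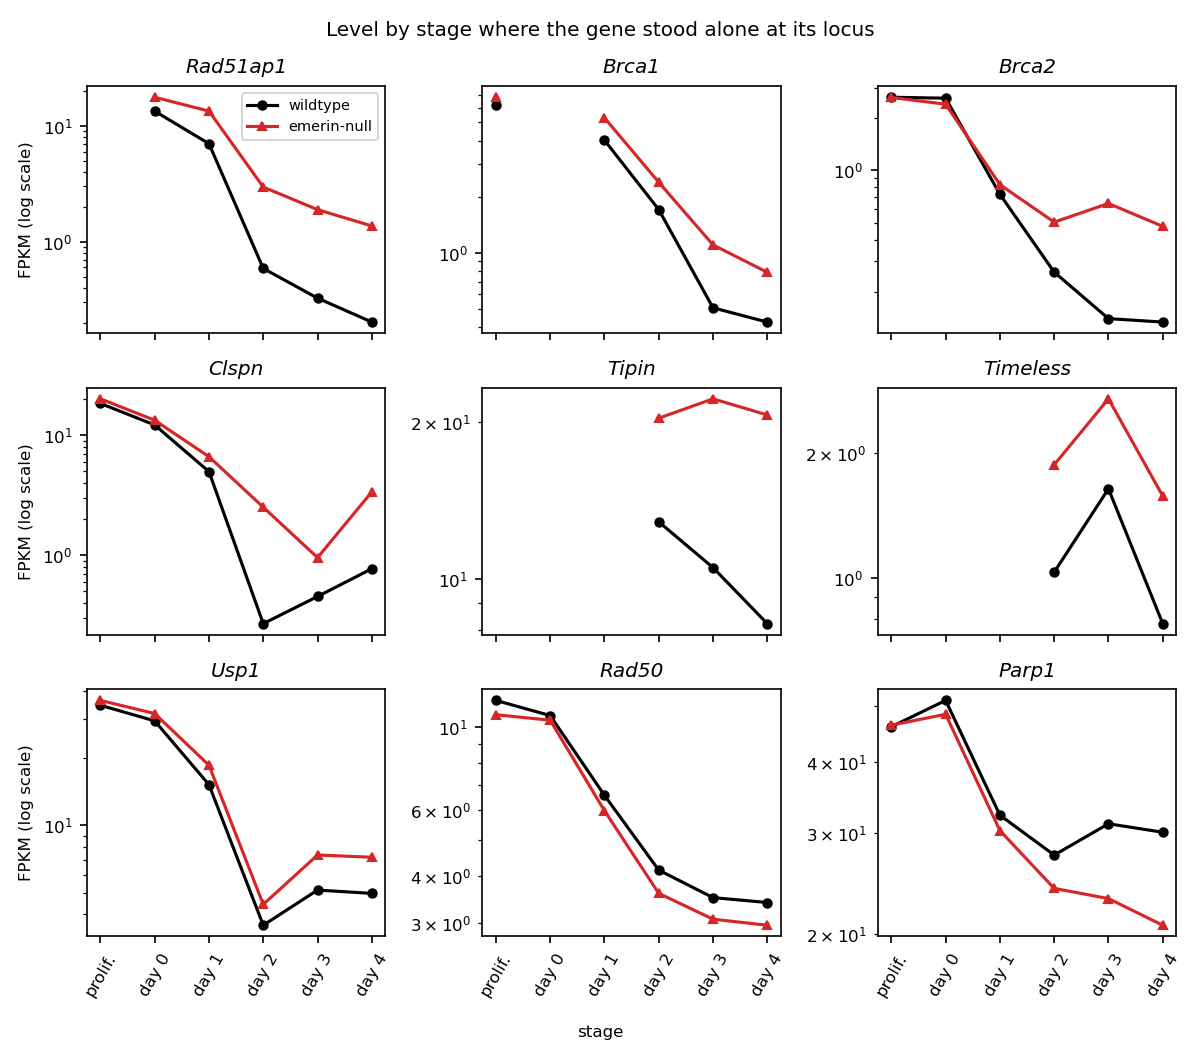
FPKM (log axis, a different range in each panel) by stage of 9 members in wildtype (black circles) and emerin-null (red triangles) samples, at the stages at which the gene was alone at its locus, 1 pooled value per point. The red line lies above the black one in the panels of Rad51ap1, Brca1, Clspn, Tipin, Timeless and Usp1 at every stage shown, and below it in that of Rad50.

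Wrn, a RecQ helicase, was higher in emerin-null cells at 6 of 6 stages, from 4.00 and 4.28 FPKM in proliferating cells to 0.785 and 1.12 on day 2, 0.729 and 1.46 on day 3 and 0.601 and 1.02 on day 4. The mean difference of 0.42 ± 0.12 (SE; limma, adjusted p = 0.0530) missed the threshold. Blm, its relative, had 2 entries over the same locus at most stages. The larger one read 6.89 and 7.91 FPKM in proliferating cells, 4.53 and 6.07 on day 1, and 44.6 to 92.9 FPKM at the other stages, while the smaller one ran from 7.88 and 8.55 on day 0 to 1.02 and 1.25 on day 4. A processed pseudogene, Ndufab1-ps (chr7:80507787-80508254, plus strand), lies within Blm, and which entry held the Blm transcript was not tested. Rmi1, a partner of Blm, had entries on days 2 to 4 only, at 3.40 to 4.09 FPKM. The nuclease pair was joined throughout: Mus81 with Cfl1, Efemp2 or Snx32 at 9.69 to 73.1 FPKM, and Eme1 with Lrrc59 at 42.6 to 138 FPKM.

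The entries used for the mismatch repair members were joined with a neighbour at every stage. Those of Msh3 are not given, and of its smaller entries 2 were alone at their locus before day 2, at 4.60 to 6.86 FPKM in wildtype and 0.782 to 6.23 in emerin-null cells. Msh6 was joined with Fbxo11 at 9.04 to 16.8 FPKM. Pms2 was joined with Aimp2, Ankrd61 or Eif2ak1 at 22.9 to 69.8 FPKM. The log2 ratios of the joined loci of Msh6 and Pms2 lay between -0.31 and 0.13.

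Genes of nick repair kept levels above 7 FPKM where they were alone. Parp1, the sensor of strand breaks, was the most abundant member with a level of its own in proliferating cells. It measured 46.0, 51.1, 32.3, 27.5, 31.2 and 30.1 FPKM in wildtype and 46.3, 48.4, 30.3, 24.1, 23.1 and 20.8 in emerin-null cells. The pairs were close until day 1 and emerin-null was lower from day 2, to a log2 ratio of -0.54 on day 4. Its mean was -0.22 ± 0.081 (SE, n = 6 stages; limma, adjusted p = 0.0988). Xrcc1, the scaffold of nick repair, reached 47.1 FPKM on day 1 in wildtype cells, with ratios on both sides of 0 (mean -0.04, adjusted p = 0.718 by limma). Parp2 was alone on days 2 to 4 at 7.95 to 9.90 FPKM with emerin-null higher at 3 of 3 stages by log2 ratios of 0.09 to 0.21, and was joined with Tep1 or Rpph1 before at 4.97 to 19.1 FPKM.

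Xrcc5, a subunit of the Ku ring that clamps broken ends in end joining, was highest in wildtype cells on days 1 and 2. The wildtype values were 5.57, 6.49, 10.5, 9.23, 6.23 and 5.51 FPKM and the emerin-null values 4.30, 4.47, 5.92, 5.64, 5.53 and 6.15. It was past 1.5-fold lower in emerin-null cells on day 1 (log2 ratio -0.81) and day 2, and higher on day 4. Its mean over 6 stages was -0.40 ± 0.13 (SE; limma, adjusted p = 0.0699), and -0.52 with an adjusted p of 0.0243 without day 4. Its partner Xrcc6 shared its locus with Nhp2l1 at every stage, and with Desi1 as well until day 1, at 13.8 to 19.4 FPKM. Polq, the polymerase of a back-up route of end joining, was higher in emerin-null cells at 6 of 6 stages, from 2.30 and 2.88 FPKM to 0.271 and 0.375, with 0.144 and 0.580 on day 3 (mean 0.58 ± 0.18, SE; limma, adjusted p = 0.0601).

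Of the genes that protect the replication fork, Tipin and Timeless passed as higher in emerin-null cells and Clspn did not pass. Tipin (chr9:64281581-64305424, plus strand), the small partner of Timeless, was alone on days 2, 3 and 4. Wildtype cells held 12.9, 10.5 and 8.21 FPKM and emerin-null cells 20.4, 22.2 and 20.7, so that the wildtype value was lower each day and the emerin-null value was not. The mean log2 difference was 1.02 ± 0.15 (SE, n = 3 stages; limma, adjusted p = 0.0240). Timeless (chr10:128232065-128252941, plus strand) held 1.03, 1.64 and 0.778 FPKM in wildtype and 1.87, 2.69 and 1.57 in emerin-null cells on the same days, a mean of 0.80 ± 0.12 (SE, n = 3 stages; limma, adjusted p = 0.0227). Neither could be tested with any of its 3 stages left out. Before day 2 Tipin was joined with Dis3l at 26.4 to 52.9 FPKM and log2 ratios of 0.39 to 0.50, and Timeless with Mip, a lens gene, at 5.68 to 17.4 FPKM and ratios below 0 at 3 of 3 stages, the lowest -0.19. With the joined entries the difference of Timeless was 0.36 (limma, adjusted p = 0.206).

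Clspn (chr4:126556935-126593903, plus strand) was alone at every stage. Wildtype cells held 18.5, 12.2, 4.98, 0.268, 0.452 and 0.771 FPKM and emerin-null cells 20.2, 13.4, 6.64, 2.52, 0.954 and 3.37. The lines were close until day 0, and emerin-null was higher at 6 of 6 stages with a log2 ratio of 2.83 on day 2, 0.93 on day 3 and 2.00 on day 4. This uneven course gave a mean of 1.07 ± 0.39 (SE; limma, adjusted p = 0.0969). Trip13, an ATPase that remodels checkpoint and repair proteins, was alone at 2 stages, at 23.9 and 22.6 FPKM in proliferating cells and 0.516 and 1.07 on day 4, and was joined with Brd9 between them at 9.15 to 25.4 FPKM.

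A second test asked whether the difference between the lines itself changed with the medium. Interferon-γ and, by the published methods, temperature and carbon dioxide changed at the same step, so these cannot be told apart. The mean ratio of days 1 to 4 was compared with that of proliferating and day 0 cells by limma in 7652 genes. Among 21 members, 0 passed an adjusted p of 0.05, where 0.248% of all genes did, and 2 had an unadjusted p below 0.05, Usp1 and Rad51ap1, where 13.2% of all genes did. The mean log2 ratio of Rad51ap1 was 0.40 in growth medium and 1.90 in differentiation medium, a change of 1.5 ± 0.58 (SE, n = 5 stages; limma, adjusted p = 0.379). That of Clspn was 0.13 and 1.54, and that of Brca2 -0.06 and 0.96. Day 1 carried weight in this test: without it Rad51ap1 passed with a change of 1.82 (limma, adjusted p = 0.0181), and the genes called in all rose from 10 higher and 9 lower to 103 and 27.

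Other repair genes, in lists that share no gene with the members, were put through the same test over stages. In it, 10.0% of all genes were higher and 9.98% lower. Among other homologous recombination and Fanconi genes 2 of 10 tested were higher, the nuclease scaffold Slx4 by 0.19 and Sfr1 by 0.29 (limma, adjusted p = 0.0364 and 0.0209). Damage signaling genes gave 2 of 10, the checkpoint kinase Chek1 by 0.44 and Etaa1 by 0.36 (adjusted p = 0.0316 and 0.0423). Chek1 itself stood at 6.56 and 6.82 FPKM in proliferating cells and at 0.281 and 0.494 on day 4. Of 9 nucleotide excision genes, Ercc6 was lower by -0.20 (adjusted p = 0.0440). Other end joining genes gave 0 of 6 and translesion polymerases 0 of 5. An unadjusted p below 0.05 by limma was found for 36.7% of all genes. It was found for 6 of 10 other homologous recombination and Fanconi genes and 5 of 10 damage signaling genes. The count was 2 of 9 for nucleotide excision genes, 0 of 6 for other end joining genes and 2 of 5 for translesion polymerases. The median log2 difference was 0.16 over the 25 members, 0.20 over the other homologous recombination and Fanconi genes, 0.17 over damage signaling genes, -0.05 over other end joining genes, -0.04 over nucleotide excision genes and 0.08 over translesion polymerases, beside -0.0044 over all genes and 1.03 over the cycling cell markers, of which 2 of 16 passed (Mcm4 and Pcna).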

How the data were processed

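RNA of wildtype and emerin-null H2K progenitors was sequenced on an Illumina HiScan-SQ. Per the submitters' processing notes, FastQC, TopHat and Cuffdiff were used with the mm10 build, with no versions named. As deposited by the authors, the data were 1 Cuffdiff table per stage with 1 pooled FPKM value per genotype; each table was assembled separately, held 28636 to 29731 entries and had 35 to 48 gene names turned into dates, which were dropped. Columns with the authors' fold changes, test statistics, p-values and q-values were not used. Growth temperature of proliferating cells differs between sources and was not used. For each gene and stage the status OK entry with the largest summed FPKM was kept, and a gene was alone where its locus named no other gene, microRNA and predicted genes aside. Ratios used a pseudocount of 0.1 FPKM. Test 1 (an intercept over the stages) and test 2 (medium) were fitted with limma 3.58.1 in R 4.3.3, with a variance trend, over genes with 3 or more ratios and a mean of at least 1 FPKM; both were tested on simulated data. Counts past 1.5-fold required 1 FPKM in either genotype, or no minimum. Named with values are members past a test, the 3 largest rises and falls at each stage past 1.5-fold, the most and least abundant member of each role, and members with a shared locus; further members are given for completeness of their role and were chosen after their values were seen. Alternatives were another pseudocount, no minimum, joined loci, summed entries, entries of any status, centred ratios, no variance trend, a 2-fold limit, scaled levels and each stage left out; 2 more were added after seeing the data. The members and gene lists were chosen with earlier results of these data known. Depth per sample is unknown, so no interval for counting error is given. Results for some related and neighbouring genes, and for 1 further list of mismatch and base excision genes, are not reported here.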

Additional observations from a re-analysis of the deposited data

Results flagged for a closer look

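Rad54l and Trip13 were flagged because their difference between the lines had opposite signs in growth medium and in differentiation medium. That difference was not tested, since Rad54l was below the minimum level of the test and Trip13 had ratios at 2 stages only. Opposite signs were not particular to them. The mean ratios of Brca2 (-0.06 and 0.96, a change of 1.02), Bard1, Palb2, Mre11a and Rbbp8 also changed sign, and none of these passed the test of the medium. The sign of Rbbp8 changed only through its day 3 entry of 93397 FPKM in wildtype against 0. Its ratio was above 0 at the 5 other stages, and without that entry its change was 0.49. Rad54l had a log2 ratio of -0.20 on day 0 and of 1.58 and 0.98 on days 2 and 3, a change of 1.48, at wildtype levels of 0.105 to 0.813 FPKM. Trip13 had a log2 ratio of -0.08 in proliferating cells and of 0.92 on day 4, a change of 1.01, where its wildtype level had gone from 23.9 to 0.516 FPKM. The cycling cell markers moved in the same direction on these days, with median log2 ratios of 1.46 to 1.88, and their part was not tested.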

How the results depend on the processing

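Limits: 1 pooled value per genotype and stage, 1 line per genotype, and low levels after day 1. When each stage was left out in turn, the members called in the test over stages numbered 0 to 5 higher and 0 to 1 lower, and all genes 432 to 738 higher and 438 to 761 lower; in the test of the medium they numbered 0 to 1 higher, and all genes 2 to 103 higher and 3 to 27 lower. Centring the ratios left 0 members lower in the test over stages. In the test of the medium, all genes called numbered 23 higher and 15 lower with joined loci and 6 and 4 with summed entries. Members past 1.5-fold higher on days 2, 3 and 4 numbered 4, 2 and 4 at a pseudocount of 1 and 4, 2 and 4 past 2-fold, and 10 on day 3 with no minimum; with summed entries they were 9 on day 3 and 13 on day 4. At 2-fold 0 members were higher or lower on day 1 and 0 lower on day 2. With joined loci 1 member was higher in proliferating cells, with entries over 10000 FPKM left out 0 were lower on day 3, and with centring 1 was lower on day 4. Members 2-fold lower between stages numbered, with joined loci, in wildtype 3 upon dense plating, then 11 by day 1, 17 by day 2 and 4 in the last step, and in emerin-null samples 3 upon dense plating, 12 by day 1 and 3 in the last step, each against the stage before. With scaled levels 3 were lower at day 1 in emerin-null samples. At day 4, 0 were lower in wildtype without entries over 10000 FPKM, and 1 in emerin-null with the largest entry among those alone. The last 2 settings were chosen after seeing the data. Counts with joined loci cover more members and include RNA of neighbouring genes, so they cannot be set against the counts of members alone at their locus. The shares of all genes past these fold limits under the other settings are not given, so these counts show only how the members' calls moved.

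The mean difference of Rbbp8 turned from -2.95 to 0.54 and its change with the medium from -4.74 to 0.49 without entries over 10000 FPKM, and they ran from -3.70 to 0.43 and -6.52 to 0.36 with stages left out. Changes with the medium near 0, none called, also changed sign: Fancb -0.040 at a pseudocount of 1, -0.11 with joined loci and -0.012 centred; Blm 0.015 and Fancc 0.018 with summed entries; Xrcc1 -0.015 centred. With stages left out Blm ran from -0.13 to 0.065, Fancb from -0.0093 to 0.096, Fancc from -0.072 to 0.025, Xrcc1 from -0.087 to 0.083, Xrcc2 from -0.093 to 0.087 and Xrcc5 from -0.11 to 0.21. The cause of these changes was not tested. The test over stages pairs the genotypes within a stage, and there were no replicate numbers to pair further, as each genotype had 1 value per stage.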
